A study of Mus musculus with 18 samples.

Results

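The CDK inhibitors and G1 cyclins were followed as a family of 10 genes among the 55487 genes counted in adipose tissue of mice lacking Csn8 in adipocytes. The rule names them by role: the CIP/KIP inhibitors Cdkn1a, Cdkn1b and Cdkn1c, the INK4 inhibitors Cdkn2a, Cdkn2b, Cdkn2c and Cdkn2d, and the cyclins Ccnd1, Ccne1 and Ccne2. Total RNA was sequenced after removal of ribosomal RNA from subcutaneous white adipose tissue (sWAT) and brown adipose tissue (BAT). The mice were males on chow, fasted for 4 h, and each library was taken as 1 mouse. The sWAT came from 12-week-old mice, 4 Ctrl and 4 Csn8AKO, and the BAT from 4-week-old mice, 5 Ctrl and 5 Csn8AKO. Ctrl mice (WT in the labels) were Csn8 f/f littermates, which carry the floxed allele without Cre. Csn8AKO mice (KO in the labels) carry the same floxed allele with Cre under the adiponectin promoter, which removes Csn8, the gene of a COP9 signalosome subunit, in adipocytes, so that other cells of the tissue keep the gene. The strain is not given in the sources used here, and tissue and age cannot be told apart, since each tissue was sampled at its own age.

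Passage from G1 into S phase is driven by D-type cyclins bound to CDK4 or CDK6 and by E-type cyclins bound to CDK2, which phosphorylate the retinoblastoma proteins and release E2F. INK4 proteins bind CDK4 and CDK6 and block their pairing with cyclin D, whereas CIP/KIP proteins bind the assembled cyclin-CDK complexes and chiefly inhibit CDK2. Mature adipocytes have left the cell cycle, and several of these inhibitors are known to accumulate as fat cells differentiate or as cells become senescent. The COP9 signalosome removes NEDD8 from cullins and so tunes the ubiquitin ligases that degrade several of these proteins. The transcript levels given here do not measure the proteins. By western blot, the paper saw no significant change in p21 (from Cdkn1a) or p27 (from Cdkn1b) in Csn8AKO epididymal white fat. That depot was not sequenced here, and those males were older.

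The libraries held 15835721 to 23109603 counted reads in sWAT and 26658593 to 66719937 in BAT. Reads on ribosomal RNA genes made up 1.80% to 47.8% of the sWAT libraries and 0.863% to 15.1% of the BAT libraries. Summed levels of 6 brown adipocyte markers lay at 3900 to 8730 CPM in BAT (CPM are counts scaled to a common library total) and at 65.0 to 141 CPM in Ctrl sWAT, and none of the 9 adipocyte markers was at 0 in any group. In sWAT, Ctrl 1 and Csn8AKO 2 stood apart with B cell marker sums of 194 and 508 CPM, against 3.60 to 15.8 CPM in the other sWAT libraries, and Csn8AKO 3 and 4 had 31.8% and 47.8% of their reads on ribosomal RNA genes. In BAT, Csn8AKO 1 and 5 held skeletal muscle markers at 101.4 and 179.5 CPM, against at most 2.23 CPM in the other BAT libraries. The targeted gene, listed as Cops8, lay at 35.0 ± 0.912 CPM in Ctrl sWAT and at 32.2 ± 2.99 CPM in Csn8AKO sWAT (SD, n = 4), with an adjusted p of 0.623. In BAT it lay at 39.4 ± 3.22 CPM in Ctrl and at 32.2 ± 3.57 CPM in Csn8AKO mice (SD, n = 5), a log2 difference of -0.30 with an adjusted p of 0.0211. A gene count over whole tissue still includes reads from undeleted cells and from the exons outside the deleted part, so it checks the labels weakly. Adjusted p-values come throughout from the quasi-likelihood test of edgeR with Benjamini-Hochberg adjustment over all genes tested, and a gene was called at an adjusted p under 0.05.

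Cdkn1a, which encodes the CIP/KIP inhibitor p21, was higher in Csn8AKO mice in both tissues, by 4.80-fold in sWAT and by 3.17-fold in BAT. Ccnd1 (cyclin D1) rose and Cdkn2d (p19INK4d) fell in BAT, by 1.5-fold and 1.54-fold. The Ccnd1 and Cdkn2d calls in BAT were lost with a covariate of B and T cell markers. That covariate also cut the calls over all genes in BAT from 7121 to 2436. The T cell marker sum did not overlap between genotypes in BAT, so the covariate was partly confounded with genotype. The other inhibitors and cyclins did not pass the test in either tissue, and Cdkn2a, the source of p16INK4a and p19ARF, was too rare for the test within a tissue. In sWAT, 1 of the 9 members tested was called, or 11.1%, beside 5.31% of 18843 genes. It was called higher, beside 2.30% of genes called higher and 3.00% called lower. In BAT, 3 of 9 were called, or 33.3%, beside 31.9% of 22345 genes. Of these, 2 were higher, beside 16.0% of genes, and 1 was lower, beside 15.8% of genes. In each tissue 1 member, Cdkn1a, was called with a log2 difference of at least 1, beside 3.31% of genes in sWAT and 11.0% in BAT. The median log2 difference of the 9 tested members was 0.36 in sWAT, beside 0.03 over all genes, and 0.06 in BAT, beside 0.01 over all genes.

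**Figure D1:**
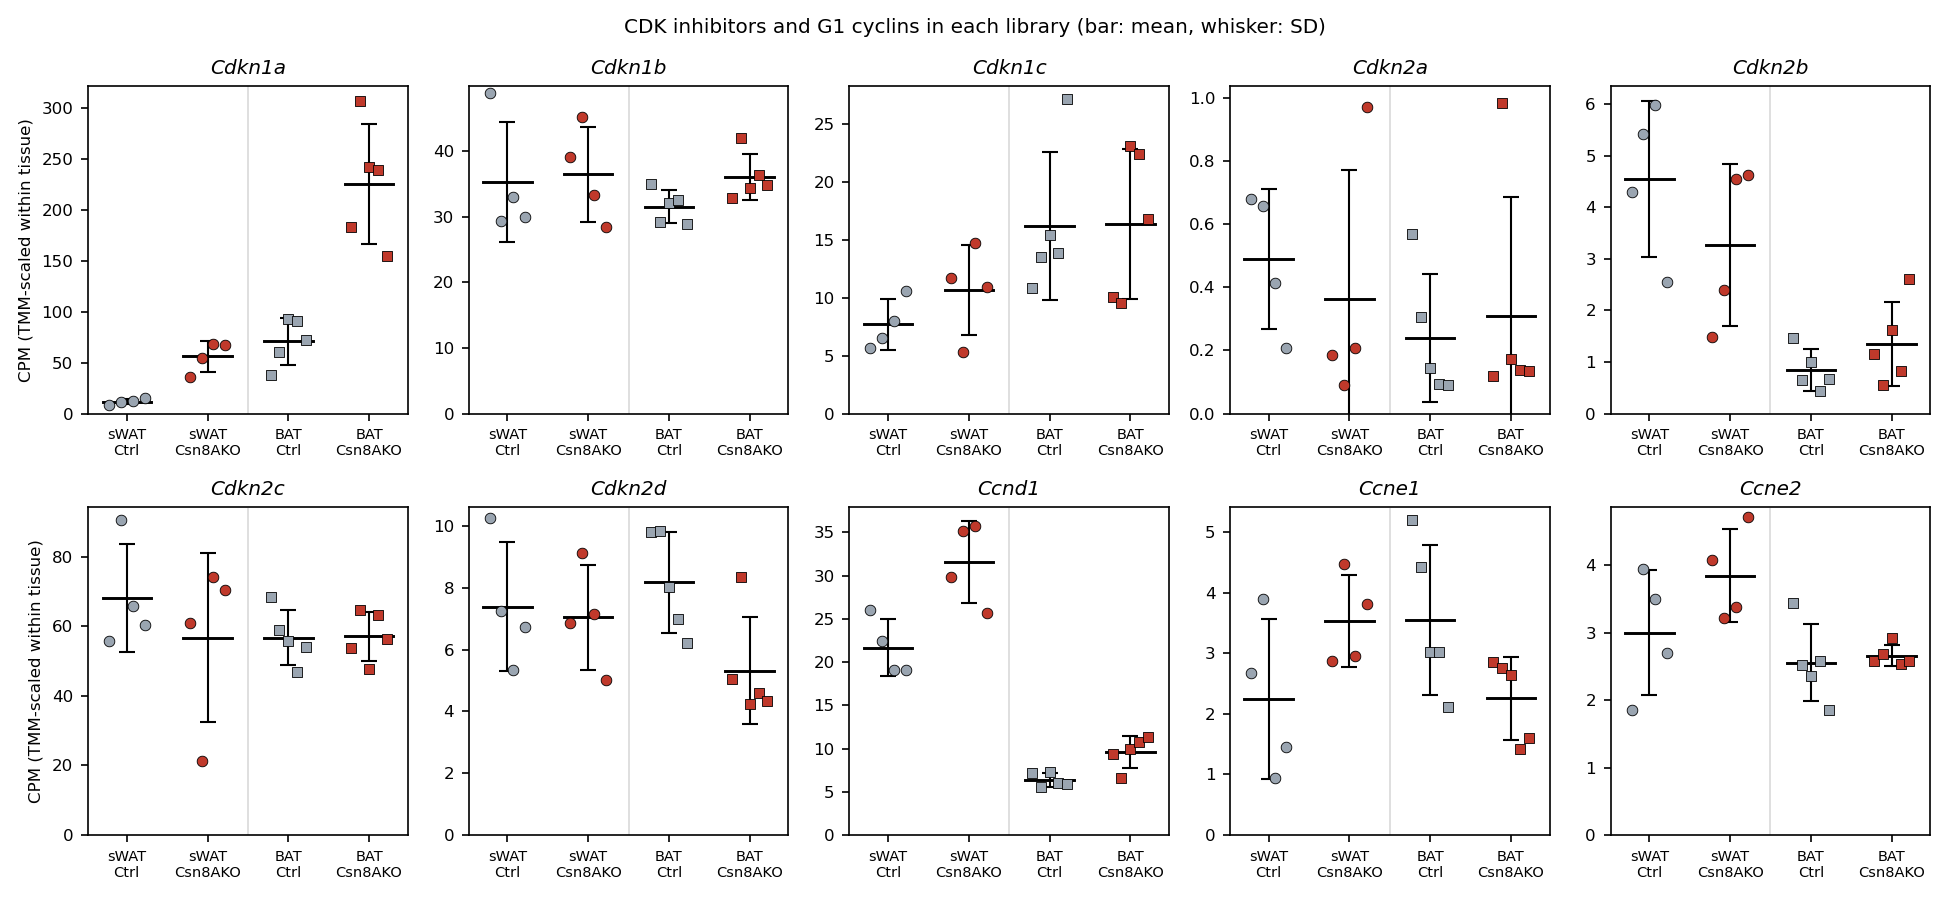
CPM of each of the 10 genes in each library, scaled by TMM factors within a tissue, with 1 panel per gene on a linear axis from 0 (circles sWAT, squares BAT, grey Ctrl, red Csn8AKO, bars means, whiskers SDs, cut at 0 for Cdkn2a). In the Cdkn1a panel all Csn8AKO points lie above all Ctrl points of the same tissue, and in each of the other 9 panels the genotypes overlap in both tissues.

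The mouse Cdkn1a gene (ENSMUSG00000023067) lies on the plus strand at chr17:29090976-29100727 of GRCm38. RefSeq gives it 2 start sites, and their windows from 250 bases before to 50 bases after the start are shown because Cdkn1a carried the largest difference among the members. In the first window the capitals mark a match to the 20-base consensus of p53, the transcription factor for which Cdkn1a is a textbook target.
Cdkn1a, distal start, chr17:29090729-29091028, plus strand: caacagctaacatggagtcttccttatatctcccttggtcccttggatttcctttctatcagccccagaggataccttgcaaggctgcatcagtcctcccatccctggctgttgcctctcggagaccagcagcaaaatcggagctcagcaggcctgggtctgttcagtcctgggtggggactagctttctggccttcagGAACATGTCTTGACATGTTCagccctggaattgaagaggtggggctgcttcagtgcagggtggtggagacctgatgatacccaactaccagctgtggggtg
In the second window, which lies inside the gene, the capitals mark 2 copies of GGGCGG, the core of the GC box bound by Sp1-type factors.
Cdkn1a, internal start, chr17:29093519-29093818, plus strand: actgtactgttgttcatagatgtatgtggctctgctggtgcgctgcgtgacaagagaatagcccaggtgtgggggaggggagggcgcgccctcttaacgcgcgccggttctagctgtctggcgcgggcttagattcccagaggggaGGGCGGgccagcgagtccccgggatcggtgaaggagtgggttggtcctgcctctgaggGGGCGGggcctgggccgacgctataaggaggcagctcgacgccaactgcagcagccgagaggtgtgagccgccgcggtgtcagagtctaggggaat
The p53 match, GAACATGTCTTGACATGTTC at chr17:29090928-29090947, had 1 mismatch to the consensus and began 51 bases before the distal start. With up to 2 mismatches and no spacer, 262 of 32851 RefSeq windows of this length, or 0.798%, held such a match on either strand. Both GC boxes lay before the internal start, by 104 and 46 bases, and GGGCGG on either strand was present in 35.7% of all windows. Windows were found for 7 of the 10 members, 10 in all, of which 1 held the p53 consensus and 8 held GGGCGG. For comparison, CCAAT was present in 37.4% of all windows and in 4 of the members' 10, and TATAAA in 13.6% and in 0 of 10. The E2F-type patterns TTTCCCGC and TTTGGCGC were present in 1.07% and 0.514% of all windows, and in 1 and 0 of the members' windows. These matches describe the letters of the windows and say nothing of binding in these tissues.

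In Ctrl sWAT, Cdkn1a lay at 8.60, 11.3, 12.3 and 14.8 CPM in libraries 1 to 4. In Csn8AKO sWAT it lay at 35.6, 54.1, 68.3 and 67.3 CPM. The lowest Csn8AKO library was above the highest Ctrl library, and no other member was separated in this way in sWAT, where 14.0% of all genes tested had groups that do not overlap. The means were 11.7 ± 2.55 and 56.3 ± 15.3 CPM (SD, n = 4), a log2 difference of 2.26 with a standard error of 0.24 and an adjusted p of 0.0015 in edgeR. The 95% confidence interval ran from 3.33-fold to 6.90-fold. Of the 18843 genes tested in sWAT, 71 had a larger log2 difference in the same direction. Without Csn8AKO 3 and 4 the log2 difference was 1.91 with an adjusted p of 0.0225. In bulk tissue, a change in the number of cells of a type and a change in RNA per cell cannot be told apart.

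In Ctrl BAT, Cdkn1a lay at 37.7, 59.9, 93.0, 91.1 and 72.4 CPM. In Csn8AKO BAT it lay at 183, 307, 242, 239 and 154 CPM. The groups again did not overlap, which was so of 21.0% of all genes tested in BAT and of no other member. The means were 70.8 ± 23.0 and 225 ± 58.8 CPM (SD, n = 5), a log2 difference of 1.67 with a standard error of 0.26 and an adjusted p of 0.000726 in edgeR. Its 95% confidence interval was 2.13-fold to 4.73-fold, and 497 of 22345 genes had a larger log2 difference in the same direction. Cdkn1a shares exonic bases with AC167363.2 on the opposite strand. The authors counted unambiguous reads, but the strand setting is not given in the sources used here. How reads over the shared bases were treated is therefore not known. AC167363.2 itself had log2 differences of 0.93 in sWAT and 0.60 in BAT, with adjusted p-values of 0.211 and 0.0549.

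The remaining CIP/KIP genes gave no call with TMM scaling. Cdkn1b encodes p27, which holds cells in quiescence and is a substrate of ligases that contain cullin 1. In sWAT its level ran from 29.3 to 48.8 CPM in Ctrl and from 28.4 to 45.2 CPM in Csn8AKO mice, a log2 difference of 0.05 with a 95% confidence interval from -0.40 to 0.50. In BAT, Cdkn1b lay at 35.0, 29.1, 32.1, 32.5 and 28.9 CPM in Ctrl and at 32.9, 42.0, 34.3, 36.4 and 34.9 CPM in Csn8AKO mice. The BAT ranges overlapped, and the log2 difference of 0.19 had an interval from 0.0096 to 0.38 and an adjusted p of 0.102. With library size alone as the scaling, Cdkn1b was called in BAT, at a log2 difference of 0.32 with an adjusted p of 0.0188, and the median of all genes moved by 0.134 in the same direction. Cdkn1c encodes p57, an imprinted growth inhibitor expressed from the maternal allele. In sWAT it lay at 5.66 to 10.6 CPM in Ctrl and at 5.34 to 14.7 CPM in Csn8AKO mice, a log2 difference of 0.47 with an interval from -0.21 to 1.16. For BAT the Cdkn1c ranges were 10.8 to 27.1 and 9.54 to 23.0 CPM, with a log2 difference of 0.02 and an interval from -0.69 to 0.72. The highest Ctrl value, in library 5, stood well above the other 4, which reached 15.4 CPM at most. Cdkn1c overlaps the antisense gene Gm44732, with the same limit on strand.

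Among the INK4 genes, Cdkn2d was called, in BAT. Cdkn2d encodes p19INK4d, an inhibitor of CDK4 and CDK6 whose level oscillates in cycling cells. It lay at 9.80, 9.84, 8.04, 6.99 and 6.22 CPM in Ctrl BAT. In Csn8AKO BAT it lay at 5.06, 8.36, 4.23, 4.61 and 4.35 CPM. Replicate 2 of the Csn8AKO group sat inside the Ctrl range and the other 4 lay below every Ctrl library. The means were 8.18 ± 1.63 and 5.32 ± 1.73 CPM (SD, n = 5), and the gene fell by 0.63 on the log2 scale with a standard error of 0.20 and an adjusted p of 0.0265. With 1 library removed at a time, this call was lost in 6 of 10 fits, those without Ctrl 1 or 2 or without Csn8AKO 1, 3, 4 or 5, and the adjusted p ran from 0.000933 to 0.0707. Without both Csn8AKO 1 and 5 the adjusted p was 0.139. With the covariate of B and T cell markers in the fit, the log2 difference shrank to -0.22 with an adjusted p of 0.627. That covariate was partly confounded with genotype, as given above. In sWAT, Cdkn2d ran from 5.33 to 10.3 CPM in Ctrl and from 5.01 to 9.14 CPM in Csn8AKO mice, a log2 difference of -0.07 with an interval from -0.63 to 0.49.

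Cdkn2c (p18INK4c), the INK4 gene best known from terminal differentiation, gave no call. In Ctrl sWAT it lay at 55.8, 90.6, 65.8 and 60.2 CPM and in Csn8AKO sWAT at 60.9, 21.3, 74.3 and 70.4 CPM. Replicate 2 of the Csn8AKO group was far below the other 7 libraries, and without it the log2 difference moved from -0.27 to 0.01. In BAT the Cdkn2c ranges were 46.8 to 68.3 CPM in Ctrl and 47.7 to 64.8 CPM in Csn8AKO mice, and the interval of the log2 difference, from -0.22 to 0.24, was among the narrowest of the members. Cdkn2b (p15INK4b), a gene induced by TGF-beta in many cells, lay at 4.30, 5.42, 5.98 and 2.54 CPM in Ctrl sWAT and at 1.48, 2.40, 4.55 and 4.64 CPM in Csn8AKO sWAT. Those groups overlapped, with a log2 difference of -0.49 and an interval from -1.37 to 0.39. In BAT, Cdkn2b was rarer, at 0.443 to 1.47 CPM in Ctrl and 0.552 to 2.61 CPM in Csn8AKO mice, and the log2 difference of 0.67 had an interval from -0.20 to 1.54.

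Cdkn2a gives rise to p16INK4a and, from another first exon and reading frame, to p19ARF, and the gene count does not separate them. It had 15, 13, 7 and 4 reads in Ctrl sWAT and 4, 2, 3 and 13 reads in Csn8AKO sWAT. In BAT it had 22, 18, 9, 5 and 5 reads in Ctrl and 7, 25, 5, 10 and 4 reads in Csn8AKO mice. At these counts it did not pass the filter of either tissue, so a difference between genotypes within a tissue was not tested with that filter. In each Csn8AKO group 1 library held most of the signal, replicate 4 in sWAT at 0.972 CPM and replicate 2 in BAT at 0.986 CPM.

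Ccnd1, the cyclin D1 gene, is the D-type cyclin most often induced by mitogens. In sWAT it lay at 26.02, 22.4, 19.1 and 19.1 CPM in Ctrl and at 29.8, 35.1, 35.7 and 25.7 CPM in Csn8AKO mice. Only replicate 4 of the Csn8AKO group lay below a Ctrl library, replicate 1. The sWAT log2 difference of 0.54 had a standard error of 0.16, an interval from 0.19 to 0.89 and an adjusted p of 0.0804 in edgeR, which is not a call. DESeq2 and limma-voom gave adjusted p-values of 0.035 and 0.023 for it, and edgeR without Ctrl 1 and Csn8AKO 2, which held lymphocyte markers, gave 0.0416. In BAT, Ccnd1 lay at 7.21, 5.61, 7.34, 6.02 and 5.88 CPM in Ctrl and at 9.33, 6.54, 9.97, 10.7 and 11.3 CPM in Csn8AKO mice. Replicate 2 again lay inside the Ctrl range, and the other 4 Csn8AKO libraries lay above it. The BAT means were 6.41 ± 0.806 and 9.58 ± 1.86 CPM (SD, n = 5), a log2 difference of 0.58 with a standard error of 0.15 and an adjusted p of 0.00869. Without Csn8AKO 1 and 5, which held muscle markers, the adjusted p was 0.0531. With the covariate of B and T cell markers, which was partly confounded with genotype, the BAT log2 difference was 0.30 with an adjusted p of 0.443. Ccnd1 shares exonic bases with LTO1 on the opposite strand, whose log2 difference in BAT was -0.75 with an adjusted p of 0.000256, opposite in sign to that of Ccnd1.

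The E-type cyclins, partners of CDK2 at the start of S phase, were rare in both tissues and gave no call in edgeR with all libraries and no block. Ccne1 (cyclin E1) lay at 2.67, 3.90, 0.948 and 1.45 CPM in Ctrl sWAT and at 2.87, 4.48, 2.97 and 3.81 CPM in Csn8AKO sWAT, a log2 difference of 0.65 with an interval from -0.25 to 1.55. In BAT its levels were 5.20, 4.42, 3.02, 3.03 and 2.11 CPM in Ctrl and 2.85, 2.76, 2.65, 1.42 and 1.60 CPM in Csn8AKO mice. The BAT log2 difference of -0.66 had an interval from -1.23 to -0.09 and an adjusted p of 0.074 in edgeR, and without Ctrl 5 the adjusted p was 0.0286. Ccne1 was also called lower in BAT by limma-voom, with an adjusted p of 0.0196, and with a replicate block, with one of 0.0201. The genotype difference of Ccne1 in BAT minus that in sWAT was -1.31, the furthest from 0 among the 10 members, with an adjusted p of 0.191. Ccne2 (cyclin E2) lay between 1.86 and 4.71 CPM in the 8 sWAT libraries and between 1.86 and 3.44 CPM in the 10 BAT libraries. Its log2 differences were 0.36 in sWAT, with an interval from -0.26 to 0.98, and 0.06 in BAT, with an interval from -0.30 to 0.42. Ccne2 overlaps Ints8 on the opposite strand.

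**Figure D2:**
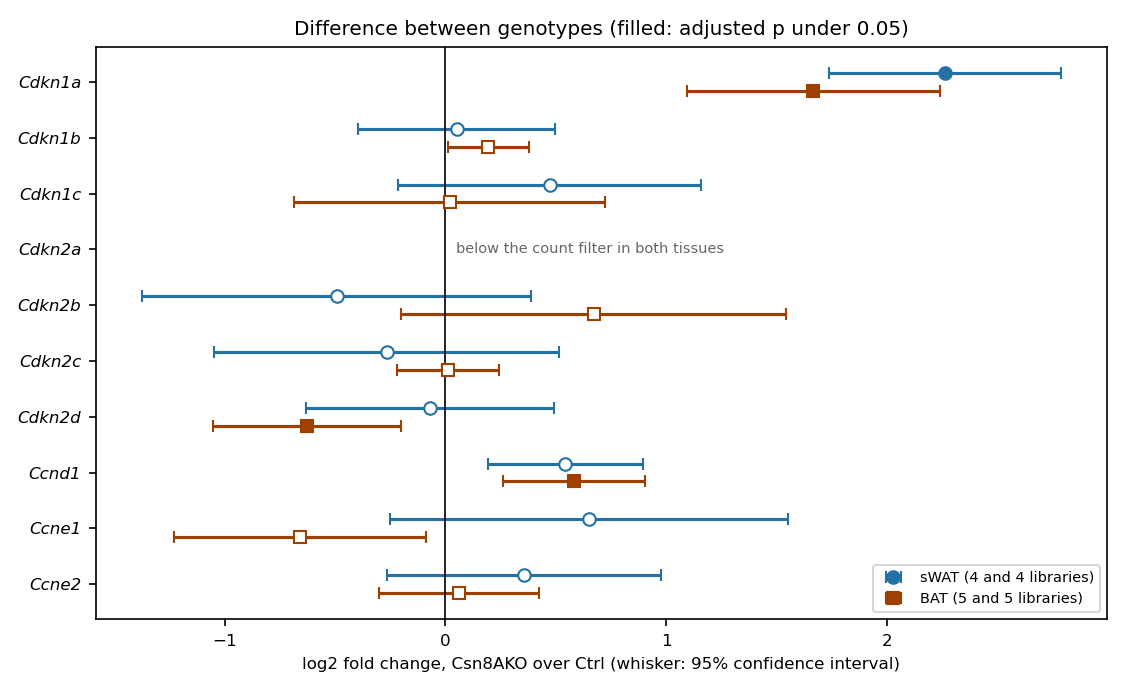
Log2 fold change of Csn8AKO over Ctrl for each member in sWAT (blue circles, 4 and 4 libraries) and BAT (brown squares, 5 and 5 libraries), with 95% confidence intervals as whiskers and filled symbols for an adjusted p under 0.05. The sWAT interval of Cdkn1a, 1.74 to 2.79, lies above those of the other 8 tested members, and the BAT interval, 1.09 to 2.24, overlaps that of Cdkn2b, -0.20 to 1.54.

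To ask whether the genotype difference itself differed between the tissues, an interaction term was fitted over all 18 libraries, in which Cdkn2a also passed the filter. It called 0 of the 10 members, beside 2.36% of 22509 genes, with 1 member, Ccne1, at an unadjusted p under 0.05, and DESeq2 and limma-voom also called 0. For Cdkn1a the log2 difference in BAT minus that in sWAT was -0.60, with a 95% confidence interval from -1.38 to 0.18 and an adjusted p of 0.479. For Ccnd1 it was 0.03, with an interval from -0.42 to 0.47. For Cdkn2d, which was called in BAT and not in sWAT, it was -0.57 with an adjusted p of 0.439, so a difference between the tissues was not shown. Cdkn2b gave 1.15 with an adjusted p of 0.392 and an interval from -0.13 to 2.44.

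Between the Ctrl groups, 4 of the 10 members differed, 2 higher and 2 lower in BAT than in sWAT, beside 51.5% of 22509 genes called. The same 4 had Ctrl groups that do not overlap, beside 45.9% of genes. Cdkn1a was 6.45-fold higher in Ctrl BAT, a log2 difference of 2.69 with a standard error of 0.29 and an adjusted p of 3.26e-07. Cdkn1c was 2.25-fold higher in BAT, with an adjusted p of 0.00878. Ccnd1 was 3.15-fold lower in BAT, with an adjusted p of 2.27e-08, and Cdkn2b was 5.06-fold lower, with an adjusted p of 0.000167. Cdkn1b, Cdkn2c, Cdkn2d and Ccne2 had log2 differences between -0.17 and 0.24, and Ccne1 had one of 0.75 with an adjusted p of 0.0818. These BAT libraries came from younger mice, so the contrast is of tissue and age together.

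Levels of different members were compared per length, as RPKM (CPM per kilobase of exon), scaled over all 18 libraries. In Ctrl sWAT, Cdkn2c was the most abundant member, at 19.5 to 33.4 RPKM with a median of 22.8, and its range did not overlap that of Cdkn1b, next at a median of 6.71 RPKM. Cdkn2d, Ccnd1, Cdkn1c, Cdkn2b and Cdkn1a followed with medians from 4.37 down to 3.25 RPKM, and neighbours in that order overlapped. Ccne2, Ccne1 and Cdkn2a had medians under 1, at 0.861, 0.738 and 0.443 RPKM, below the lowest value of Cdkn1a and overlapping one another. In Csn8AKO sWAT, Cdkn1a stood next to Cdkn2c, at a median of 16.2 RPKM against 23.8, with overlapping ranges.

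In Ctrl BAT, Cdkn2c at a median of 21.4 RPKM and Cdkn1a at 21.0 RPKM shared the top of the order and overlapped, followed by Cdkn1b, Cdkn1c and Cdkn2d at 7.31, 7.03 and 5.28 RPKM. Ccnd1, Ccne1, Ccne2, Cdkn2b and Cdkn2a came last there, with medians from 1.32 down to 0.128 RPKM. In Csn8AKO BAT, Cdkn1a led alone at 44.0 to 89.0 RPKM, with no overlap with Cdkn2c at 18.2 to 24.9 RPKM.

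Within the summed RPKM of the 7 inhibitor genes, the share of Cdkn1a had a median of 6.53% in Ctrl sWAT, with a range from 5.16% to 9.30%. It had a median of 28.6% in Csn8AKO sWAT, from 19.0% to 35.2%. In BAT the median share was 31.5% in Ctrl, from 18.7% to 41.5%, and 59.3% in Csn8AKO mice, from 51.1% to 65.9%. In both tissues the genotypes did not overlap in this share. The summed RPKM of the other 6 inhibitors had medians of 42.0 and 42.7 in Ctrl and Csn8AKO sWAT and of 43.4 and 42.0 in Ctrl and Csn8AKO BAT, with overlapping ranges. Cdkn1a was the most abundant inhibitor in 0 of 4 Ctrl and 1 of 4 Csn8AKO sWAT libraries, and in 3 of 5 Ctrl and 5 of 5 Csn8AKO BAT libraries.

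**Figure D3:**
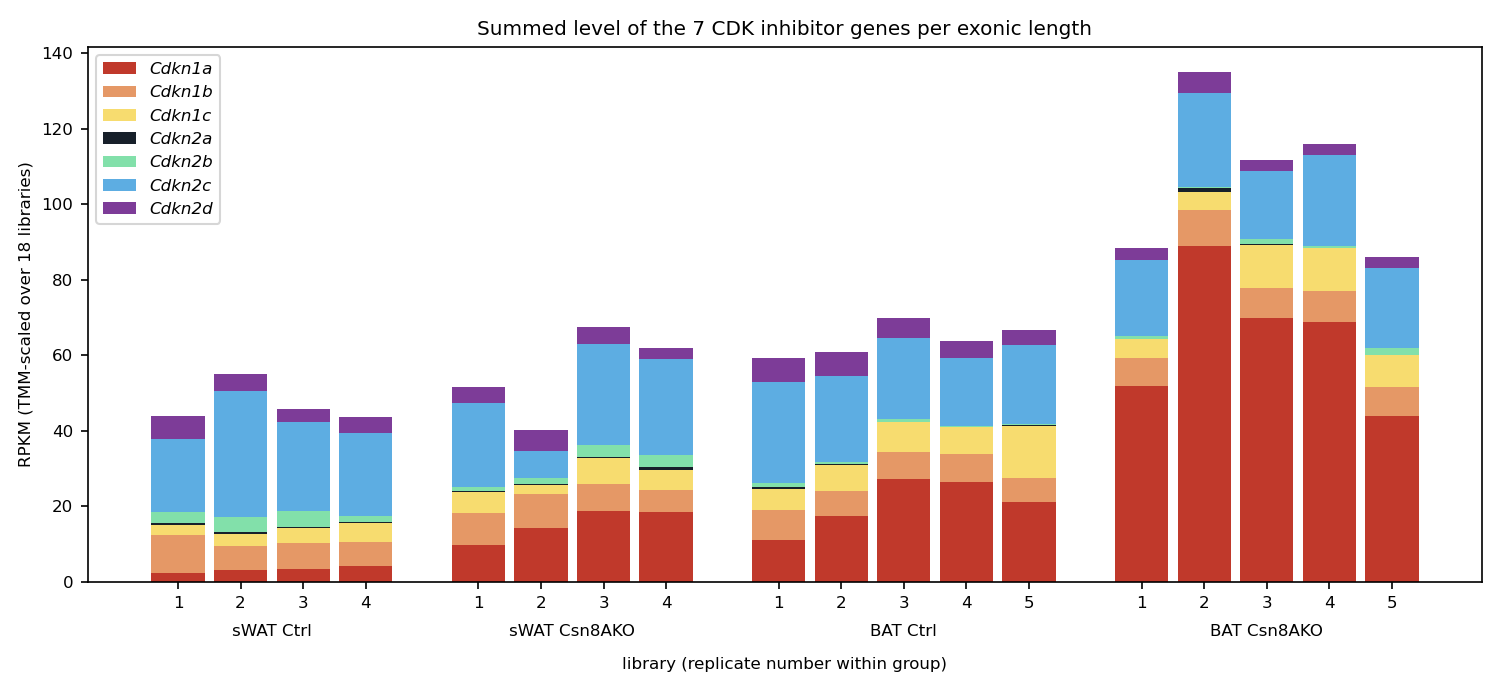
RPKM of the 7 CDK inhibitor genes stacked for each of the 18 libraries, scaled over all libraries, with 1 bar per library on a linear axis from 0. The red Cdkn1a segment takes a median of 6.53%, 28.6%, 31.5% and 59.3% of the bar in Ctrl sWAT, Csn8AKO sWAT, Ctrl BAT and Csn8AKO BAT, and the blue Cdkn2c segment is the next largest or the largest in each bar but sWAT Csn8AKO 2.

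Cell composition moved with genotype as well, and marker sums are given beside the members. In sWAT, 8 of 10 macrophage markers were called higher, and their summed level was 857 to 1110 CPM in Ctrl and 1610 to 2620 CPM in Csn8AKO mice, with an exact permutation p of 0.0286, the smallest that 4 against 4 libraries allow. With library size alone as the scaling, those sums overlapped, with an exact p of 0.0857. The summed level of 9 adipocyte markers was 18900 to 24400 CPM in Ctrl and 6190 to 14500 CPM in Csn8AKO sWAT, with 4 of the 9 called lower. In BAT, 9 of 10 macrophage markers and 8 of 8 fibroblast and progenitor markers were called higher. The BAT macrophage sum was 70.5 to 105 CPM in Ctrl and 309 to 462 CPM in Csn8AKO mice, and the fibroblast sum was 754 to 1230 and 1740 to 3410 CPM, each with an exact permutation p of 0.00794, the smallest that 5 against 5 libraries allow. The BAT adipocyte sum overlapped, at 12700 to 14700 and 11900 to 14200 CPM, with 2 of 9 markers called lower.

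Summed neutrophil markers lay higher in Csn8AKO mice without overlap in both tissues, at 12.3 to 20.7 against 5.57 to 7.38 CPM in sWAT and at 2.48 to 4.16 against 1.06 to 1.97 CPM in BAT, while the neutrophil gene Ly6g was at 0 in every sWAT library. With library size alone as the scaling, the sWAT neutrophil sums overlapped, with an exact permutation p of 0.0857. Of the neutrophil markers tested, 1 of 3 was called higher in sWAT and 1 of 2 in BAT, Csf3r in each. Mean Csf3r alone rose from 4.42 to 10.0 CPM in sWAT. T cell markers in BAT summed to 2.29 to 3.70 CPM in Ctrl and 5.83 to 9.49 CPM in Csn8AKO mice, and Schwann cell markers to 8.73 to 12.3 and 13.7 to 41.6 CPM, both without overlap. Of the T cell markers, 3 of 6 were called higher, with log2 differences over the list from 0.03 to 2.03. Mean Cd4 alone rose from 1.1 to 4.47 CPM. Of the Schwann cell markers, 3 of 3 were called higher. Sums of the T cell, B cell, endothelial, fibroblast, mural, muscle, Schwann and erythroid lists in sWAT, and of the B cell, endothelial, mural, brown adipocyte, muscle and erythroid lists in BAT, overlapped between genotypes. Brown adipocyte markers in sWAT summed to 65.0 to 141 CPM in Ctrl and 9.51 to 24.5 CPM in Csn8AKO mice. Of the 5 tested there, 2 were called lower and 0 higher, with log2 differences from -7.52 to 2.27.

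In the order of the Cdkn1a values given above, the macrophage sum lay at 868, 857, 1030 and 1108 CPM in Ctrl sWAT and at 2621, 1606, 2494 and 1742 CPM in Csn8AKO sWAT. In BAT it lay at 105, 91.3, 70.5, 103 and 84.6 CPM in Ctrl and at 377, 309, 390.2, 358 and 462 CPM in Csn8AKO mice. Between genotypes Cdkn1a and the macrophage sum moved together in both tissues, but within groups they did not always. In Csn8AKO BAT, replicate 2 had the highest Cdkn1a, 306.5 CPM, and the lowest macrophage sum, 308.6 CPM. Replicate 5 of that group had the lowest Cdkn1a, 154.4 CPM, and the highest sum, 461.6 CPM. In Ctrl sWAT, replicate 4 had the highest of both. The part of cell composition in the Cdkn1a, Ccnd1 and Cdkn2d differences was not tested. Csn8AKO BAT replicate 2 had the highest Cdkn1a, Cdkn1b, Cdkn2a, Cdkn2c and Cdkn2d and the lowest Ccnd1, Cdkn1c and Cdkn2b of its group. Its share of reads on ribosomal RNA genes was 15.1%, against at most 4.10% in the other 4. In Ctrl BAT that share was 10.1%, 3.70%, 0.863%, 2.01% and 0.962% in libraries 1 to 5. Ctrl 1 and 2 also had the highest Cdkn2d, Ccne1 and Cdkn2a of their group. Whether this share was related to the member differences was not tested.

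**Figure D4:**
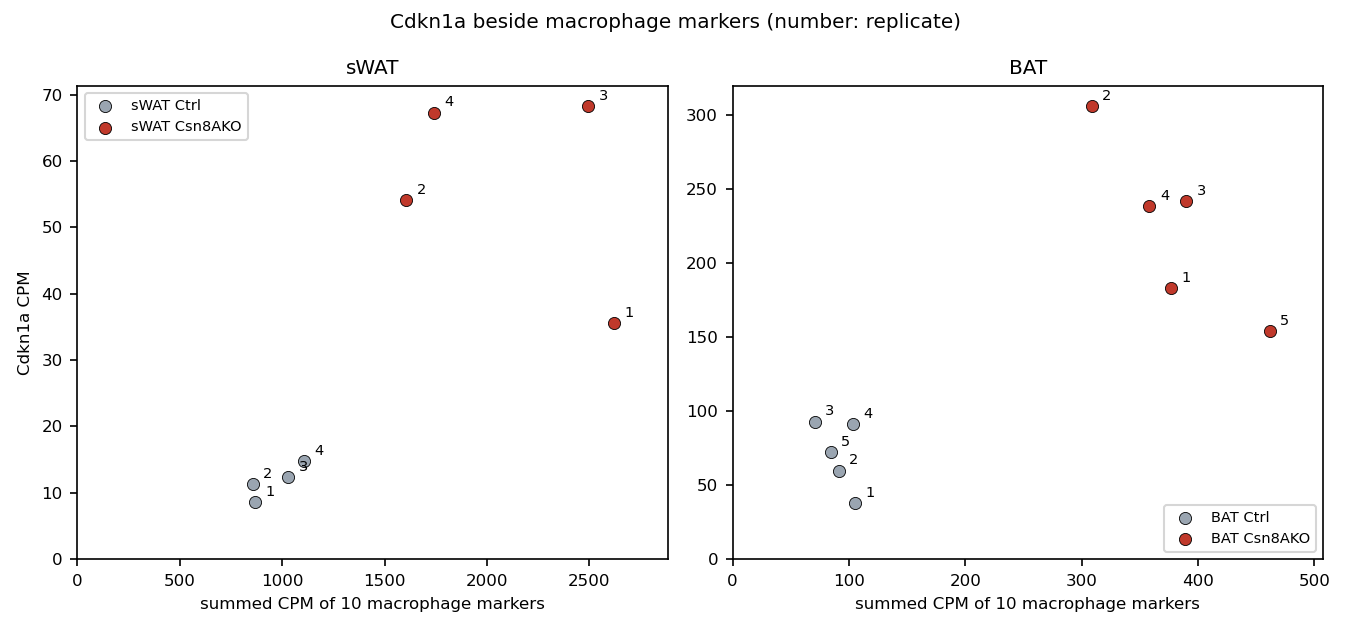
Cdkn1a CPM (vertical axis) against the summed CPM of 10 macrophage markers (horizontal axis) in each sWAT and BAT library, on linear axes from 0, with Ctrl in grey, Csn8AKO in red and the replicate number at each point. Genotypes are apart on both axes in both tissues, with macrophage sums of at most 1108 CPM in Ctrl sWAT and 105 CPM in Ctrl BAT and of at least 1606 and 309 CPM in Csn8AKO mice.

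The other genes of the G1 pathway were counted from fixed lists. Of 9 other G1 cyclins, CDKs and their activators, 0 were called in sWAT, with 0 at an unadjusted p under 0.05 in edgeR and 0 called by DESeq2 or limma-voom, and the median log2 difference was 0.15. In BAT, 1 was higher and 1 lower, or 22.2%, beside 31.9% of all genes, and alternatives gave 1 to 4 calls. Ccnd2 (cyclin D2) lay at 28.6 ± 9.00 CPM in Ctrl BAT and 71.1 ± 24.1 CPM in Csn8AKO BAT (SD, n = 5), a 2.48-fold rise with an adjusted p of 0.00836 in edgeR and with overlapping ranges. The Ccnd2 difference was larger in BAT than in sWAT by 1.58 on the log2 scale, with an adjusted p of 0.0138 for the interaction. Cdk6, the kinase partner of the D-type cyclins, fell by 0.36 on the log2 scale in BAT, with an adjusted p of 0.0278.

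Of 13 genes of the retinoblastoma and E2F families, 0 were higher and 1 lower in sWAT and 3 were higher and 4 lower in BAT, with median log2 differences of -0.06 and -0.00102. These are 7.69% and 53.8% of the list, beside 5.31% and 31.9% of all genes, and in BAT the fit with the lymphocyte covariate gave 1 call in place of 7. Tfdp2, a dimer partner of E2F proteins, fell from 39.2 ± 4.14 to 24.6 ± 4.54 CPM in sWAT (SD, n = 4), with an adjusted p of 0.0378 in edgeR. In BAT, E2f6, a repressor of the family, fell from 24.9 ± 1.01 to 17.0 ± 1.66 CPM and E2f2, an activator, rose from 4.23 ± 0.675 to 11.5 ± 3.98 CPM (SD, n = 5), both without overlap and with adjusted p-values of 0.000272 and 0.00031 in edgeR.

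Of 17 ubiquitin ligase genes that act on the members' proteins, 0 were called in sWAT, with 2 at an unadjusted p under 0.05 in edgeR, 0 called by DESeq2 and 1 by limma-voom. In BAT, 2 were higher and 2 lower, or 23.5% beside 31.9% of all genes, with a median log2 difference of 0.01, and alternatives gave 0 to 8 calls. Skp1a, the adaptor of cullin 1 ligases, fell by 0.38 on the log2 scale, from 99.9 ± 6.52 to 76.6 ± 4.22 CPM, and Cul4b, a cullin, fell by 0.38 as well (SD, n = 5), with adjusted p-values of 0.00118 and 0.00788 in edgeR. The higher pair were Skp2, the receptor that targets p27, and its cofactor Cks1b, at log2 differences of 0.62 and 0.51.

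Since p53 is the classical activator of Cdkn1a, 23 genes made up of Trp53 and known p53 targets other than Cdkn1a were counted. In sWAT, 3 were higher and 0 lower, or 13.0% of those tested beside 5.31% of all genes, with a median log2 difference of 0.43 beside 0.03. In BAT, 10 were higher and 1 lower, or 47.8% beside 31.9%, with a median of 0.54 beside 0.01. Over the alternatives the list gave 0 to 6 calls in sWAT, with 0 under library size alone, and 7 to 15 in BAT. Eda2r, a death receptor of the tumor necrosis factor family, rose in sWAT from 1.61 ± 0.253 to 5.19 ± 1.08 CPM (SD, n = 4), or 3.21-fold, with an adjusted p of 0.00612 in edgeR. Bax, a pro-apoptotic effector, rose by 1.66-fold in sWAT and by 2.02-fold in BAT, with adjusted p-values of 0.0347 and 1.01e-05. Zmat3, an RNA-binding protein gene, rose in BAT from 20.2 ± 1.12 to 39.2 ± 4.02 CPM (SD, n = 5), with an adjusted p of 3.40e-06. The gene that fell in BAT was Rrm2b, a ribonucleotide reductase subunit, at a log2 difference of -0.89. Of 22 RefSeq start windows found for 17 of these 23 genes, 1 held the p53 consensus used above, or 4.55%.

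Genes of S, G2 and M phase, which act downstream of the G1 cyclins, were also counted. Of 30, 2 were higher and 0 lower in sWAT, or 6.67% beside 5.31% of all genes, with a median log2 difference of 0.62 beside 0.03. In BAT 19 were higher and 1 lower, or 66.7% beside 31.9%, with a median of 0.74 beside 0.01. The BAT count of 20 fell to 3 with the covariate of B and T cell markers and to 6 without Csn8AKO 1 and 5, and the sWAT count ran from 1 to 8 over the alternatives. In sWAT, Bub1, a spindle checkpoint kinase, lay at 0.284 ± 0.132 CPM in Ctrl and 1.44 ± 0.383 CPM in Csn8AKO mice (SD, n = 4), with an adjusted p of 0.016 in edgeR, and Kif11, a mitotic motor, rose by 1.93-fold with an adjusted p of 0.0469. In BAT, Plk1, a mitotic kinase, rose from 0.897 ± 0.354 to 3.22 ± 0.576 CPM (SD, n = 5) and Cdc20, an activator of the anaphase-promoting complex, by 2.22-fold, with adjusted p-values of 8.72e-05 and 0.00133. The gene that fell in BAT was Gmnn, which restrains replication licensing, at a log2 difference of -1.17. These are levels over whole tissue, which held more macrophage and fibroblast marker RNA as given above, and the cells that carried them were not identified.

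Of 14 senescence-associated genes, 10 could be tested in sWAT and 13 in BAT. In sWAT 1 was higher and in BAT 5 were higher and 1, Hmgb1, was lower, with medians of 0.48 and 0.87. The list mixes genes expected to rise in senescent cells with genes expected to fall, such as Lmnb1 and Hmgb1. These medians therefore give no direction of senescence. The calls were 10.0% and 46.2% of the genes tested, beside 5.31% and 31.9% of all genes, and alternatives gave 0 to 2 calls in sWAT and 2 to 9 in BAT. Mmp12, a metalloproteinase made chiefly by macrophages, lay at 5.14 ± 4.14 CPM in Ctrl and 76.4 ± 26.3 CPM in Csn8AKO sWAT (SD, n = 4), with an adjusted p of 0.0427 in edgeR. In BAT, Mmp12 rose from 0.161 ± 0.0715 to 9.42 ± 2.38 CPM (SD, n = 5), with an adjusted p of 1.54e-08. Gdf15, a stress-induced secreted factor, rose in BAT from 0.196 ± 0.0985 to 9.95 ± 7.92 CPM (SD, n = 5), with an adjusted p of 0.000275, and its difference exceeded that in sWAT by 4.87 on the log2 scale, with an adjusted p of 0.0079 for the interaction. Polycomb genes, which are known to repress the locus of Cdkn2a and Cdkn2b, gave 0 calls of 13 in sWAT, with 2 at an unadjusted p under 0.05 in edgeR and 0 called by DESeq2 or limma-voom. In BAT 0 were higher and 4 lower, or 30.8% beside 31.9% of all genes, with a median log2 difference of -0.11, and with library size alone 0 were called. Cbx7, a reader of methylated histone H3, fell by 0.51 and Ezh1, a histone methyltransferase, by 0.45 on the log2 scale, with adjusted p-values of 0.00371 and 0.00668.

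**Figure D5:**
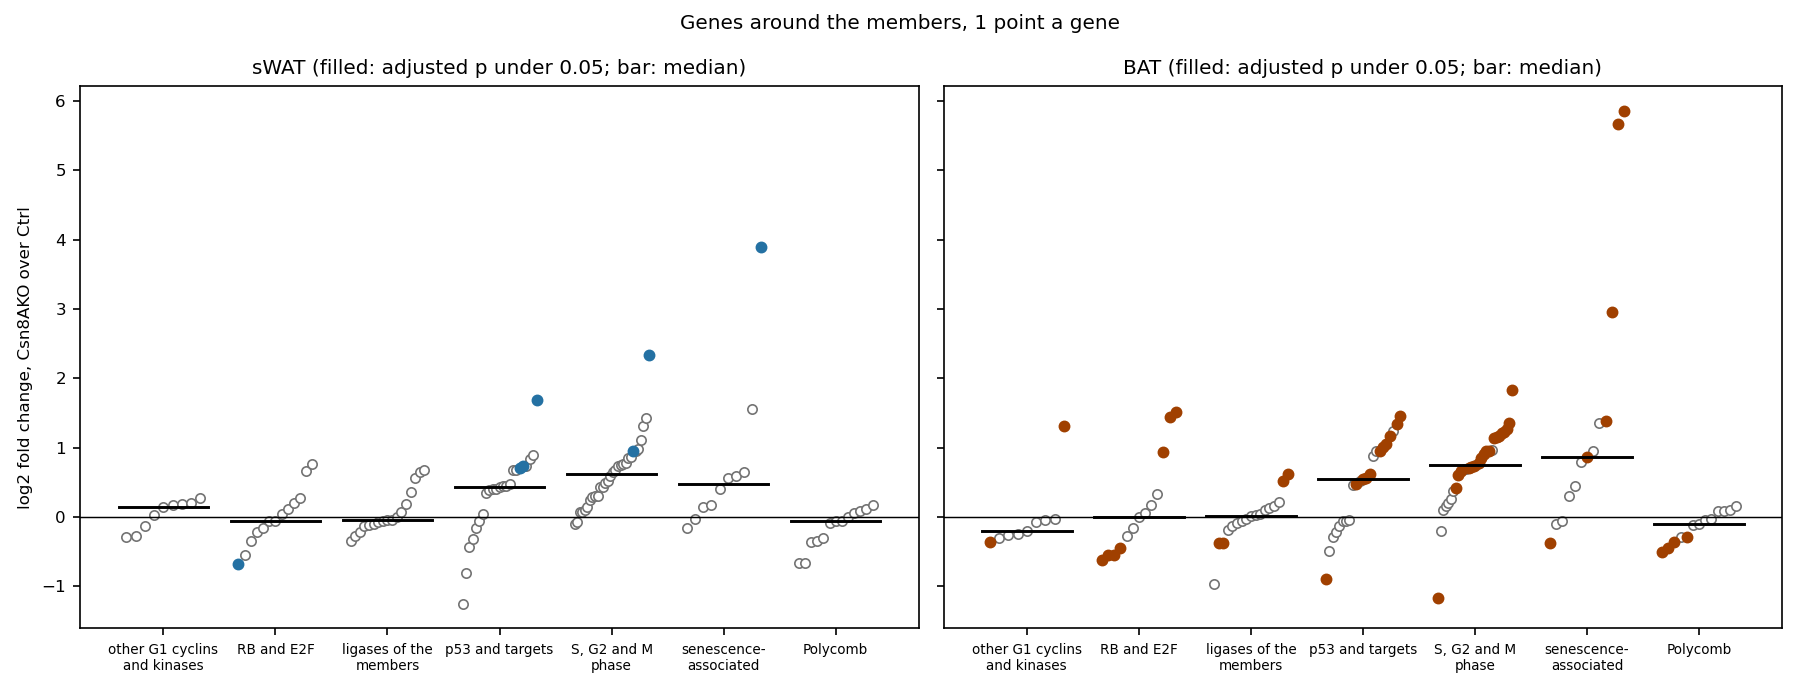
Log2 fold change of Csn8AKO over Ctrl for the genes of 7 lists around the CDK inhibitors and G1 cyclins in sWAT and BAT, with 1 point per tested gene, filled where the adjusted p was under 0.05, and a bar at the median of each list. The medians of the p53, S to M phase and senescence lists lie at 0.43, 0.62 and 0.48 in sWAT and at 0.54, 0.74 and 0.87 in BAT, and those of the other 4 lists lie between -0.21 and 0.15. The senescence list mixes genes expected to rise in senescent cells with genes expected to fall.

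As a description of pattern, the genes most like each called member were found among 13629 protein-coding genes by Pearson correlation of log2 CPM over the 18 libraries, after the mean of each tissue was subtracted. The genotype difference remains in these values, as do depth and composition shared by a library. For Cdkn1a they were Cerk, Slc9a4 and Slc25a45, at r of 0.926, 0.922 and 0.916. For Ccnd1 they were Tagln2, Cfl1 and Tuba1c, at 0.943, 0.929 and 0.912, which encode an actin-binding protein, cofilin and an alpha tubulin. For Cdkn2d they were Ccdc30, Cldn20 and Tfam, at 0.910, 0.909 and 0.892. Among the members themselves, the highest value was 0.642, between Cdkn1a and Ccnd1, and the next was 0.599, between Cdkn2d and Ccne1, whereas Cdkn2d and Cdkn1c had the lowest at -0.509.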

How the data were processed

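The deposited files held gene counts for 18 libraries, with CPM, FPKM and TPM columns that the authors derived from them. Counts were used for all tests. The authors aligned reads with STAR 2.7.9a and counted uniquely aligned reads per gene of an Ensembl annotation of GRCm38. The strand setting is not given in the sources used here. Their own comparisons used DESeq2. Genes were filtered with filterByExpr (minimum count 10, minimum total 15), scaled by TMM and tested with the quasi-likelihood test of edgeR 4.0.16 in R 4.3.3, within each tissue (4 against 4, 5 against 5) and over 18 libraries for the interaction and the Ctrl tissues. CPM in the text is TMM-scaled, and RPKM was computed with the gene lengths given in the deposited files. In the GENCODE annotation of GRCm38, 54784 of 55487 genes had the same position. For marker sums the exact permutation test was two-sided. DESeq2 1.42.0, limma 3.58.1 (voom with sample weights), other factors and filters, a replicate block, a covariate of B and T cell markers and fits without single libraries were alternatives. On simulated counts with 200 genes changed by 2 on the log2 scale, the test found 79.5% of them in sWAT and 96% in BAT. Of its calls, 8.09% and 4.95% were false. Apart from Cdkn1a in sWAT, the genotype differences of the members were smaller than 2, so these rates do not apply to them. No 2 libraries of the same group agreed within sampling noise, and pairs across groups were not compared. Each library was taken as 1 mouse, which the sources used here do not state outright. The members and gene lists were chosen with earlier results of these data known. Named were all members, in each list the 2 called genes of smallest adjusted p per tissue, and the 3 genes best correlated with each called member. Skp2, Cks1b, Rrm2b, Gmnn, Hmgb1 and the overlapping genes were chosen after their values were seen. RefSeq start windows (GRCm38.p6) were searched on both strands.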

Additional observations from a re-analysis of the deposited data

Results flagged for a closer look

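Among groups of 4 or 5 libraries, a value was singled out where its gap to the nearest other library exceeded Dixon's 95% critical value. For normally distributed values chance alone does so in about 1 group in 20. The CPM values and marker sums need not be normal, and the sets share libraries, so that rate is only a rough guide. Of 100 sets of values looked at, 44 of them of the members and Cops8, 13 were singled out, 4 of them of members. Of the members, Cdkn1c in Ctrl BAT replicate 5 lay at 27.1 CPM, with the next library at 15.4 CPM. Cdkn2a in Csn8AKO sWAT replicate 4 lay at 0.972 CPM against 0.207 CPM for the next, and in Csn8AKO BAT replicate 2 at 0.986 CPM against 0.172 CPM. Cdkn2d in the same BAT library lay at 8.36 CPM, with the next at 5.06 CPM. That library also had 15.1% of its reads on ribosomal RNA genes, against 4.10% for the next, and the lowest B cell marker sum of its group, 2.80 CPM against 5.10 CPM.

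In sWAT, Ctrl replicate 1 had a T cell marker sum of 213 CPM against 12.1 CPM for the next library, a B cell marker sum of 194 CPM against 14.9 CPM, and the lowest adipocyte marker sum, 18900 CPM against 23400 CPM. Csn8AKO replicate 2 in sWAT had a T cell marker sum of 286 CPM against 25.1 CPM and a B cell marker sum of 508 CPM against 15.8 CPM. Ctrl replicate 3 in sWAT had a skeletal muscle marker sum of 2700 CPM against 469 CPM, and Ctrl replicate 4 a Schwann cell marker sum of 36.7 CPM against 26.4 CPM.

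The genotype difference differed between the tissues for Ccnd2, by 1.58 on the log2 scale with an adjusted p of 0.0138, and for Gdf15, by 4.87 with an adjusted p of 0.0079, both from the interaction term of edgeR.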

How the results depend on the processing

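Cdkn1a was called in both tissues under every setting run, with log2 differences from 1.91 to 2.29 over 12 alternatives in sWAT (adjusted p from 1.37e-15 to 0.0225) and from 1.63 to 2.33 over 11 in BAT (highest adjusted p 0.00478), and from 2.14 to 2.43 and 1.5 to 1.78 with single libraries left out. In sWAT the count of called members rose from 1 to 2, adding Ccnd1, with DESeq2, with limma-voom, with all 4 groups in one fit, with the B and T cell covariate and without Ctrl 1 and Csn8AKO 2. In BAT it fell from 3 to 1, Cdkn1a, with that covariate and without Csn8AKO 1 and 5, and rose to 4 with library size alone (adding Cdkn1b) and with limma-voom (adding Ccne1). Correlations of same-numbered libraries ran from -0.387 to 0.223 in sWAT and from -0.0975 to 0.101 in BAT. In sWAT 0 of 4 and in BAT 2 of 5 correlated best with their own number. So few libraries cannot show whether same-numbered mice shared a litter or a batch. With a replicate block, 1 member was called in sWAT, 4 in BAT (adding Ccne1) and 0 in the interaction, and over all genes 299, 6776 and 297 were called, against 1000, 7121 and 532. No block could be fitted for the Ctrl tissues, whose numbers name different mice.

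Signs turned in members that were not called. Cdkn2d in sWAT was 0.0888 without Csn8AKO 3 and 4. In BAT, Cdkn1c was -0.515 and Cdkn2b -0.246 with the covariate, and Cdkn2c was -0.00552 without the filter and -0.0107 in one fit. In the interaction, Cdkn1b was -0.0585 without sWAT Csn8AKO 3 and 4, and Ccnd1 was -0.0165 without sWAT Ctrl 1 and Csn8AKO 2 and -0.0384 without BAT Csn8AKO 1 and 5. Between Ctrl tissues, Cdkn1b was 0.0214 without the filter, 0.0236 with voom and 0.0922 without sWAT Ctrl 1 and Csn8AKO 2, and Cdkn2d was -0.0372 with library size alone. With single libraries left out, sWAT values ran from -0.0684 to 0.248 for Cdkn1b, from -0.429 to 0.00883 for Cdkn2c and from -0.221 to 0.131 for Cdkn2d. BAT values ran from -0.127 to 0.286 for Cdkn1c, from -0.0455 to 0.0834 for Cdkn2c and from -0.0366 to 0.184 for Ccne2. Interaction values ran from -0.0415 to 0.230 for Cdkn1b, from -0.225 to 1.91 for Cdkn2a, from -0.0184 to 0.419 for Cdkn2c and from -0.0584 to 0.130 for Ccnd1, and Ctrl tissue values from -0.118 to 0.0902 for Cdkn1b, from -0.300 to 0.0198 for Cdkn2c and from -0.358 to 0.0443 for Ccne2.

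Over all genes in sWAT, 434 were called with library size alone, 1822 with DESeq2, 2129 with voom, 2463 in one fit and 2280 with the covariate, and 326 to 1477 with single libraries left out. In BAT the covariate left 2436. In the interaction DESeq2 called 1103 and voom 914. With library size alone, higher genes made up 24.4% of calls in sWAT, against 43.4%, and 66.7% in BAT, against 50.3%, and the median log2 difference of all genes moved by 0.134 in BAT, 0.217 in the interaction and -0.242 between Ctrl tissues. Of 779 recounts of list calls, 603 stayed within 1.5 times the count given and 176 did not. In sWAT the macrophage list had 5 calls with library size alone, against 8, and the adipocyte list 0 with a replicate block, against 4. In BAT the covariate cut the fibroblast and progenitor list from 8 to 5, the retinoblastoma and E2F list from 7 to 1, the S, G2 and M phase list from 20 to 3 and the senescence list from 6 to 2. Causes of these changes were not tested. Low counts limit Cdkn2a, Cdkn2b and the E-type cyclins.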
